A study of Mus musculus with 4 samples.

Results

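The genes described are 7 G protein-coupled receptors known from oligodendrocytes, the myelin-forming cells of the brain: Gpr37, S1pr5, Lpar1, Adgrb3, Gprc5b, Adora1 and Gpr62. They are a listed set of 7 among 52636 genes in each file, all 7 were found by symbol, and the list was drawn up because Gpr37 was among the largest differences between the groups. The differences of these 7 genes between the groups are therefore given as a description, with no test. Bulk RNA-seq was made from cells of the corpus callosum, the large white matter tract between the hemispheres, of mice labelled as Mertk knockouts after 4 weeks of chow with 0.2% cuprizone, a copper chelator that kills oligodendrocytes. AnnexinV-positive libraries (2), from cells that bind annexin V, a label of phosphatidylserine exposed on dying cells, were compared with AnnexinV-negative libraries (2), from cells that do not bind it. Every library carries the Mertk knockout label and the cuprizone diet, Mertk being a receptor by which phagocytes take up dying cells, so the groups hold no library labelled wild type or untreated. Mertk RNA was nonetheless read in every library, at 62.6 and 53.6 RPKM in AnnexinV-positive libraries, against 18.8 and 29.9 RPKM in AnnexinV-negative libraries. Gene totals do not show which exons the reads cover, so they do not check the label. The labels give no age and do not say if libraries of a group come from different mice. The p-values below thus rest on the spread among 4 libraries, which may be technical.

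G protein-coupled receptors span the membrane 7 times and pass an outside signal to heterotrimeric G proteins. In oligodendrocytes they respond to lipids such as sphingosine 1-phosphate and lysophosphatidic acid, to adenosine and to proteins at the cell surface, and several are known to be switched on as the cells begin to myelinate. GPR37 in particular is known from mice as a brake on oligodendrocyte differentiation and myelination.

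The depth worked out from the values was about 67460000 and 60147000 reads in AnnexinV-positive libraries and 50536000 and 43254000 reads in AnnexinV-negative libraries. Values are read as RPKM, reads per length of exon, on a scale between libraries set by the authors that does not follow this depth. In AnnexinV-positive libraries 1 read per kilobase was worth 0.0101 and 0.0116 RPKM, against 0.00833 and 0.0103 RPKM in AnnexinV-negative libraries. All genes summed to 200348 and 217768 RPKM in AnnexinV-positive libraries, against 122944 and 120680 RPKM in AnnexinV-negative libraries. All 15 listed markers of mature oligodendrocytes were lower in AnnexinV-positive libraries, with sums over the list of 46.6 and 34.5 RPKM there, against 967 and 527 RPKM in AnnexinV-negative libraries. Markers of homeostatic microglia summed to 5709 and 5711 RPKM in AnnexinV-positive libraries, against 2228 and 2711 RPKM in AnnexinV-negative libraries. No listed marker of these cell types was at 0 in all libraries. In bulk samples, fewer cells of a type and less RNA per cell cannot be told apart.

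Gpr37 was the most abundant of the 7 receptors in AnnexinV-negative cells and nearly disappeared from AnnexinV-positive cells. It encodes a receptor related to the endothelin and bombesin receptors, is a known substrate of the ubiquitin ligase parkin, and has prosaposin as a proposed ligand (gene on chromosome 6, 25665878 to 25690729, minus strand, GRCm38). Its level was 0.340 and 0.322 RPKM in AnnexinV-positive libraries 1 and 2, against 28.3 and 19.0 RPKM in AnnexinV-negative libraries 1 and 2. Both AnnexinV-positive libraries lay far below both AnnexinV-negative libraries, and the AnnexinV-negative values differed by a factor of 1.49 among themselves. The log2 difference, AnnexinV-positive minus AnnexinV-negative on log2(RPKM + 0.1), was -5.76. These levels rested on 204 and 168 reads in AnnexinV-positive and on 20648 and 11162 reads in AnnexinV-negative libraries, so counting error was small beside the difference. Among 335 G protein-coupled receptors chosen by symbol, Gpr37 had rank 98 by mean RPKM in AnnexinV-positive cells and rank 12 in AnnexinV-negative cells.

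The lipid receptors S1pr5 and Lpar1 were also much lower in AnnexinV-positive cells. S1pr5, the sphingosine 1-phosphate receptor typical of oligodendrocytes and natural killer cells (chromosome 9, 21242912 to 21248443, minus strand), was at 0.0890 and 0.0790 RPKM in AnnexinV-positive libraries, against 4.70 and 2.22 RPKM in AnnexinV-negative libraries. Lpar1, a lysophosphatidic acid receptor of myelinating cells (chromosome 4, 58435255 to 58553898, minus strand), was at 0.171 and 0.0742 RPKM in AnnexinV-positive libraries, against 4.75 and 3.19 RPKM in AnnexinV-negative libraries. For both genes the groups were well apart, although the values within a pair differed by up to a factor of 2.12 for S1pr5 in AnnexinV-negative and of 2.30 for Lpar1 in AnnexinV-positive cells. The log2 differences were -4.18 for S1pr5 and -4.20 for Lpar1. In AnnexinV-positive libraries S1pr5 rested on only 22 and 17 reads, and 51 bases of its exons overlap Gm48303 on the other strand, which was read at no more than 0.0552 RPKM.

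The orphan receptors Gpr62 and Gprc5b were below the lipid receptors in AnnexinV-negative cells by mean RPKM. Gpr62, a receptor with no established ligand (chromosome 9, 106463962 to 106465938, minus strand), had 8 reads and 0 reads in AnnexinV-positive libraries, or 0.0409 and 0 RPKM, against 2.60 and 1.10 RPKM in AnnexinV-negative libraries. A count of 0 allows up to 0.0176 RPKM there, at 3 reads. An overlap of 51 exon bases joins Gpr62 with Pcbp4 on the other strand, an RNA-binding protein gene at 1.34 and 1.30 RPKM in AnnexinV-positive libraries, against 27.7 and 17.7 RPKM in AnnexinV-negative libraries. The libraries do not keep strand, and the part of Pcbp4 reads in the Gpr62 values was not tested. Gprc5b, a family C receptor inducible by retinoic acid (chromosome 7, 118972047 to 118995211, minus strand), was at 0.107 and 0.144 RPKM in AnnexinV-positive libraries, against 2.18 and 1.29 RPKM in AnnexinV-negative libraries. Neither gene's groups overlapped, and the log2 differences were -3.92 for Gpr62 and -2.98 for Gprc5b. Iqck, which shares 606 exon bases with Gprc5b on the other strand, was at 0.0773 to 0.200 RPKM in all libraries.

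Adora1 and Adgrb3 stood apart from the other 5 receptors, with much smaller differences. Adora1, the Gi-coupled A1 adenosine receptor known from neurons and glia (chromosome 1, 134199223 to 134235431, minus strand), was at 1.33 and 1.88 RPKM in AnnexinV-positive libraries, against 3.13 and 3.55 RPKM in AnnexinV-negative libraries. The groups did not overlap, the log2 difference was -1.03, and Adora1 was the most abundant of the 7 receptors in AnnexinV-positive cells. Its exons share 1162 bases with Mybph on the other strand, which was at 0.122 to 0.284 RPKM. Adgrb3, an adhesion receptor that binds C1q-like proteins and is best known from neuronal synapses (chromosome 1, 25067476 to 25829707, minus strand), was at 0.182 and 0.129 RPKM in AnnexinV-positive libraries, against 0.238 and 0.248 RPKM in AnnexinV-negative libraries. Its groups did not overlap by a narrow margin, the log2 difference was -0.43, and it never reached the minimum of 1 RPKM. Its gene model is 18559 exon bases long, so even these low levels stood for about 205 to 531 reads a library.

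**Figure D1:**
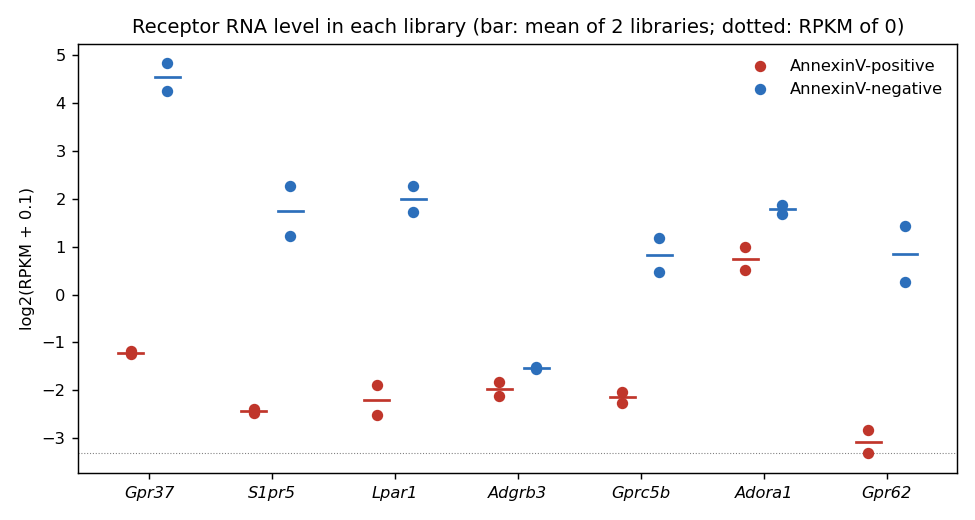
Level of each receptor as log2(RPKM + 0.1), with 1 point per library, AnnexinV-positive (red) left of AnnexinV-negative (blue), and a bar at the mean of 2 libraries. Gpr37 shows the widest gap on this scale, with a log2 difference of -5.76, while Adora1 (-1.03) and Adgrb3 (-0.43) show the narrowest.

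By mean RPKM, the order in AnnexinV-positive cells was Adora1 (1.60 ± 0.386), Gpr37 (0.331 ± 0.0130), Adgrb3 (0.156 ± 0.0381), Gprc5b (0.126 ± 0.0259), Lpar1 (0.122 ± 0.0681), S1pr5 (0.0840 ± 0.00706) and Gpr62 (0.0205 ± 0.0289; SD, n = 2 each). Adgrb3, Gprc5b and Lpar1 did not differ beyond their spread there, and S1pr5 lay within the spread of Lpar1. In AnnexinV-negative cells it was Gpr37 (23.7 ± 6.61), Lpar1 (3.97 ± 1.10), S1pr5 (3.46 ± 1.75), Adora1 (3.34 ± 0.298), Gpr62 (1.85 ± 1.06), Gprc5b (1.73 ± 0.633) and Adgrb3 (0.243 ± 0.00680; SD, n = 2 each). Lpar1, S1pr5 and Adora1 overlapped in their spread there, as did Gpr62 and Gprc5b. The spread of Gpr62 also overlapped those of S1pr5 and Lpar1, and the spread of Gprc5b overlapped that of S1pr5. The ratio of means, AnnexinV-positive over AnnexinV-negative, was 0.0111 for Gpr62, 0.0140 for Gpr37, 0.0243 for S1pr5, 0.0308 for Lpar1, 0.0725 for Gprc5b, 0.480 for Adora1 and 0.640 for Adgrb3. Which of Gpr37 and Gpr62 differed most thus depended on the scale: with a pseudocount of 0.01 the log2 differences were -6.09 for Gpr37 and -6.23 for Gpr62.

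The 7 receptors had a median log2 difference of -3.92, beside a median of 0.45 over the 10927 genes tested, those with at least 1 RPKM in at least 2 libraries. Of the 7, 6 reached that minimum, all but Adora1 through the AnnexinV-negative libraries alone. All 7 were lower in AnnexinV-positive cells with no overlap between groups, as were 30.7% of the genes above 0 in at least 1 library. As the list was made from this contrast, nothing is read from this count. The deposited scale bears on every difference: centring each library on its median gene takes 0.31 from each log2 difference, and centring on the microglia list takes 1.12. All 7 receptors were lower still on those scales and on the TPM scale, where each library sums to the same total. Each of these scales takes from the log2 differences, so none could turn the sign of a receptor.

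Sequence near the transcription start is shown for Gpr37, the gene for which the list was drawn up, and for Gpr62 and Lpar1, whose windows held the most motif matches. RefSeq windows of 250 bases before to 50 after a start (GRCm38.p6) were matched by symbol for all 7 receptors, 10 windows in all, and are written 5′ to 3′ on the minus strand. Capitals mark matches, on either strand, to the E-box CAGCTG, to the SOX-like letters ACAAAG or AACAAT, to the TATA-like letters TATAAA or to CCAAT. In window 3 of Lpar1 the CCAAT match overlaps an AACAAT match.
Gpr37 (chr6:25689931-25690230): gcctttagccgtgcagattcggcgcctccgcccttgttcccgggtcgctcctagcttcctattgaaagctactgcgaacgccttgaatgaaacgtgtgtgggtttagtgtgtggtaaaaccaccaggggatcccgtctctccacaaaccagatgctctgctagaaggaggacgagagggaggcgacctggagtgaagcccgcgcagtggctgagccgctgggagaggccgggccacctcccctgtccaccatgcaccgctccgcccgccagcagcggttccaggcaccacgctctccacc
Gpr62 (chr9:106465936-106466235): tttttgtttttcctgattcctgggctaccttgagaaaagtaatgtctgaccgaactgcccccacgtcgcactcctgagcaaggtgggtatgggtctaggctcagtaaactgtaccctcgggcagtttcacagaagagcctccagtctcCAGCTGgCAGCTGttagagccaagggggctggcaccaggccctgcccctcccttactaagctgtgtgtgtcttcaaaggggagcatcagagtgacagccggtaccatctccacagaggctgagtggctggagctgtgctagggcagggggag
Lpar1, window 3 (chr4:58499354-58499653): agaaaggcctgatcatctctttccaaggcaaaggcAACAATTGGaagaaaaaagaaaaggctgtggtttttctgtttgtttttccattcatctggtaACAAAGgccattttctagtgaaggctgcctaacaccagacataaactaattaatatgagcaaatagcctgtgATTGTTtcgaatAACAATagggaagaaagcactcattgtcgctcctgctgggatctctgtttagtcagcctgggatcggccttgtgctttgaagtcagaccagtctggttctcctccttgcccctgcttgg

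The window of Gpr37 held none of these letters, with a GC content of 62.7% and 21 CpG pairs, while the window of Gpr62 held the E-box letters 2 times, 1 base apart, with a GC content of 56.7% and 5 CpG pairs. Window 3 of Lpar1, which lies 53890 bases downstream of window 2, held AACAAT 3 times, ACAAAG 1 time and CCAAT 1 time at a GC content of 43.7%. Over all 32851 RefSeq windows of this length, 16.3% held CAGCTG, 18.7% ACAAAG, 10.7% AACAAT, 13.6% TATAAA and 37.4% CCAAT, and the median GC content was 52.7%. None of the windows of S1pr5 or Gprc5b held any of the 5 motifs. A match is a description of letters, not of a bound site.

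On log2(RPKM + 0.1), Gpr37 was the only receptor of the 7 whose difference exceeded the median of the mature oligodendrocyte markers. The 15 markers had log2 differences of -6.59 to -3.27 with a median of -4.96, and Gpr37 exceeded 11 of them in size. Lpar1 and S1pr5 each exceeded 5 markers, and Gpr62 exceeded 3. Gprc5b, at -2.98, lay just outside the range of these markers, while Adora1 and Adgrb3 were far from it. These places depended on the scale. By ratio of means, AnnexinV-negative over AnnexinV-positive, Gpr62 (90.3) and Gpr37 (71.5) exceeded Aspa (43.5), the marker at the median. S1pr5 (41.2) and Lpar1 (32.4) lay below it, and Gprc5b (13.8) lay within the marker range, from Cnp (9.95) to Hapln2 (216). Markers of oligodendrocyte precursors, of which 5 of 6 tested fell, had a median of -2.20 and a range of -4.19 to 0.55. That range takes in S1pr5, Gpr62, Gprc5b, Adora1 and Adgrb3, with Lpar1 just outside it. Its ends are Bcas1 (-4.19) and Cspg4 (0.55), the latter also listed as a mural cell marker. Pdgfra, Tnr, Matn4 and Sox6 of the list did not reach the RPKM minimum. Gpr17 and C1ql1 of that list are also described below. The whole list of precursor markers summed to 15.9 and 14.4 RPKM in AnnexinV-positive libraries, against 36.8 and 41.8 RPKM in AnnexinV-negative libraries. Most of the sum in AnnexinV-positive libraries came from Cspg4, which did not pass the test (limma adjusted p 0.237). Astrocyte markers, of which 8 of 10 tested fell, had a median of -1.22, and Adora1 lay within their range of -1.82 to -0.43. Of the 12 neuron markers 3 were tested and 2 fell, and the list summed to 2.44 and 2.36 RPKM in AnnexinV-positive libraries, against 17.5 and 11.7 RPKM in AnnexinV-negative libraries. Astrocyte sums were 36.8 and 54.6 RPKM in AnnexinV-positive libraries, against 114 and 86.6 RPKM in AnnexinV-negative libraries. The part of precursor, astrocyte and neuron RNA in the values of Adora1 and Adgrb3 was not tested.

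**Figure D2:**
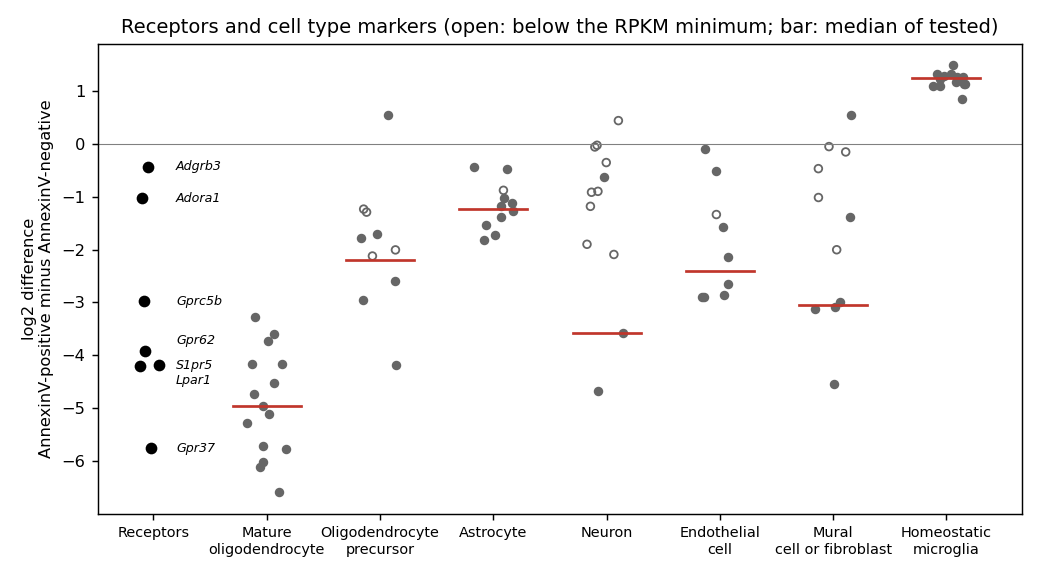
Log2 difference, AnnexinV-positive minus AnnexinV-negative, of the 7 receptors (black, left) and of cell type markers (grey; open circles lie below the RPKM minimum; red bars are medians of tested markers). Gpr37 lies among the mature oligodendrocyte markers below their median of -4.96, and Adora1 and Adgrb3 lie above the whole of that list.

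The receptors also differed within the pair of AnnexinV-negative libraries, which is described here from the same values that enter the contrast. Mature oligodendrocyte markers were higher in library 1 of the pair: the ratio of library 1 over library 2 was 1.63 to 2.71 for the 15 markers, with a median of 1.96. The ratio for homeostatic microglia markers was 0.724 to 1.22, with a median of 0.841, and over tested astrocyte markers the median was 1.24. Gpr62 (2.37), S1pr5 (2.12) and Gprc5b (1.70) lay within the range of the mature oligodendrocyte markers. Gpr37 and Lpar1, both at 1.49, lay just below that range and above that of the microglia markers. The range of tested astrocyte markers (0.985 to 1.84) also takes in Gpr37, Lpar1 and Gprc5b. Gpr62, S1pr5, Gprc5b, Gpr37 and Lpar1 all lay within the range of tested mural cell or fibroblast markers (0.456 to 2.55). All of them also lay within the range of tested neuron markers. Which cell type these ratios follow was not tested. Adora1 (0.881) and Adgrb3 (0.961) lay outside the range of the mature oligodendrocyte markers. They lay within the ranges of the microglia markers, of tested oligodendrocyte precursor markers (0.456 to 1.44, median 0.962) and of tested endothelial markers (0.470 to 1.22). These are ratios between 2 libraries and have no replicate check.

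**Figure D3:**
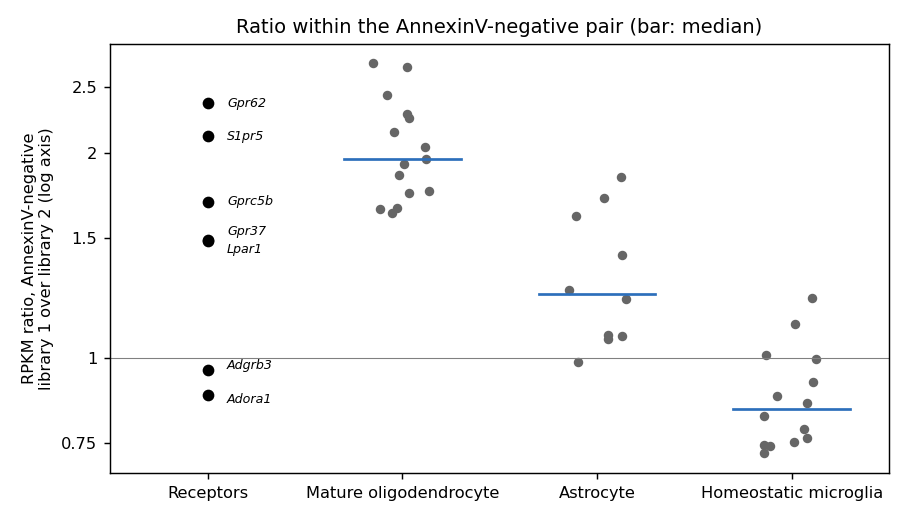
Ratio of RPKM in AnnexinV-negative library 1 over library 2 (log axis) for the 7 receptors and for markers of 3 cell types, with bars at the medians. The receptors Gpr62, S1pr5, Gprc5b, Gpr37 and Lpar1 lie at 1.49 to 2.37, and Adgrb3 and Adora1 lie just under 1.

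The genes whose pattern over the 4 libraries was most like a receptor's were named by the root mean square difference of centred log2(RPKM + 0.1) values, the 3 nearest of the tested genes for each. Gpr37 was most like Gjc3, a gap junction gene of oligodendrocytes (0.0908), followed by Slain1 (0.107) and Tmem88b (0.151). Gjc3 was at 0.323 and 0.270 RPKM in AnnexinV-positive libraries, against 29.6 and 18.7 RPKM in AnnexinV-negative libraries, almost the levels of Gpr37. Lpar1 was most like Rcan2 (0.0365), Tmeff2 (0.0523) and Ugt8a (0.0713), the last an enzyme of myelin galactolipid synthesis. S1pr5 was most like Il33 (0.0907), Gm19439 (0.103) and Tmem125 (0.110). Gstm7 (0.133) and Tnfaip6 (0.136) were among the 3 genes most like Gpr62. Gprc5b was most like Stmn3 (0.0523), Dbndd2 (0.0699) and Nkx2-2 (0.0752), a transcription factor of the oligodendrocyte lineage. Adora1 was most like Emilin2 (0.0497), Gpr4 (0.0589) and Tcaim (0.0630), and Adgrb3 was most like Slc16a1 (0.0253), Pacs2 (0.0263) and Zmynd19 (0.0297). Adgrb3 lay near the pseudocount, at 0.129 to 0.248 RPKM, where differences are shrunk, while Slc16a1 lay at 7.33 to 10.8 RPKM. With a pseudocount of 0.01 the log2 difference of Adgrb3 was -0.63 rather than -0.43. The nearest genes were not sought with other pseudocounts.

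The lists of genes read around these receptors, 9 in all, held their relatives, the enzymes and carriers of their ligands and the G proteins behind them. They also held other receptors of the oligodendrocyte lineage and 16 receptors known from microglia. Together the lists had 121 genes, called pathway genes below, of which 72 were tested. On the deposited scale 38 were higher and 16 lower in AnnexinV-positive cells (limma on log2(RPKM + 0.1), with p-values adjusted by Benjamini-Hochberg and a threshold of 0.05), where 30.8% of all genes tested were higher and 9.26% lower (40% in either direction). The median log2 difference of the 72 was 0.69. The 38 higher genes include 15 of the microglial list, of which Adora3, Lpar5 and Lpar6 are also on other lists. The higher calls rested on the scale. On the TPM scale 0 of the 72 were higher and 21 lower, where 114 of all 10927 genes tested were higher and 2104 lower. With libraries centred on the microglia list 0 of the 72 were higher and 32 lower, where 22 of all genes tested were higher and 5393 lower. Without AnnexinV-positive library 1 or 2, 24 or 25 were higher. Of the 13 genes named below as lower by the naming rule, 12 kept their call in every alternative, all but Gpr17. These genes were named for their small p-values on this same contrast. The changes of scale also lower every log2 difference, so a lower call kept on those scales is no check of it.

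Relatives of the receptors went different ways. Gpr37l1, the closest relative of Gpr37 and known from astrocytes, fell to 6.90 and 12.01 RPKM in AnnexinV-positive libraries, against 33.4 and 22.9 RPKM in AnnexinV-negative libraries, a log2 difference of -1.59 (SE 0.31, limma adjusted p 0.00868). Among sphingosine 1-phosphate receptors, S1pr3 fell (-2.38, SE 0.35, limma adjusted p 0.00391), S1pr1 was at 31.9 and 34.2 RPKM in AnnexinV-positive against 29.9 and 29.0 RPKM in AnnexinV-negative libraries (0.17, limma adjusted p 0.446), and S1pr2 was at 1.23 and 1.26 RPKM in AnnexinV-positive against 0.986 and 1.47 RPKM in AnnexinV-negative libraries (0.05, limma adjusted p 0.900). Centred on the microglia list, S1pr1 was at -0.96 and S1pr2 at -1.08, and on the TPM scale S1pr1 was at -0.61. S1pr4 was below the minimum. Among lysophosphatidic acid receptors, Lpar5 and Lpar6, both known from microglia, were higher by 1.21 and 0.96 on the deposited scale, but Lpar6 was at -0.16 and Lpar5 at 0.09 with libraries centred on the microglia list, and without AnnexinV-positive library 1 Lpar6 had a limma adjusted p of 0.0539. Lpar2, Lpar3 and Lpar4 were below the minimum. Adora3, an adenosine receptor of microglia, was at 5.05 and 5.16 RPKM in AnnexinV-positive against 2.42 and 2.48 RPKM in AnnexinV-negative libraries (1.03, limma adjusted p 0.00719; -0.09 centred on the microglia list), and Adora2a and Adora2b were below the minimum. Gprc5c fell (-1.90, limma adjusted p 0.00590), while Gprc5a, Gprc5d, Gpr61, Gpr135, Adgrb1 and Adgrb2 were below the minimum.

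Genes of the receptors' ligands, and of the enzymes and carriers that handle them, moved in both directions on the deposited scale. Psap, which encodes prosaposin, was at 706 and 661 RPKM in AnnexinV-positive against 355 and 392 RPKM in AnnexinV-negative libraries, a log2 difference of 0.87 (limma adjusted p 0.0130) that turned to -0.25 with libraries centred on the microglia list and lost its call without AnnexinV-positive library 1 (limma adjusted p 0.0576). Enpp2, which encodes autotaxin, the enzyme that makes lysophosphatidic acid, was at 115 and 15.6 RPKM in AnnexinV-positive libraries 1 and 2, against 145 and 39.7 RPKM in AnnexinV-negative libraries 1 and 2 (-0.84, limma adjusted p 0.484). It was high in both first libraries, as was Ttr, the leading transcript of the choroid plexus, which also makes autotaxin: Ttr was at 383 and 54.2 RPKM in AnnexinV-positive against 360 and 18.4 RPKM in AnnexinV-negative libraries. The part of choroid plexus RNA in the Enpp2 values was not tested, and Ttr was chosen after its values were seen. Plpp3, a phosphatase that breaks down these lipids, fell (-1.66, limma adjusted p 0.0118). Plpp1 of the same family was higher on the deposited scale (1.03, limma adjusted p 0.00772; -0.0889 centred on the microglia list) and lost its call without AnnexinV-positive library 2 (limma adjusted p 0.0595), and Plpp2 was at -0.06 (limma adjusted p 0.839). Mfsd2a, a lipid carrier of the blood-brain barrier, fell (-2.49, limma adjusted p 0.00546). Endothelial markers moved with it: 6 of 8 tested fell, with a median of -2.40 and sums of 8.69 and 12.6 RPKM in AnnexinV-positive libraries, against 43.2 and 45.1 RPKM in AnnexinV-negative libraries. Markers of mural cells or fibroblasts fell in 4 of 6 tested, with a median of -3.04 and sums of 24.3 and 18.7 RPKM in AnnexinV-positive libraries, against 73.1 and 68.0 RPKM in AnnexinV-negative libraries. Their part in these results was not tested. Sgpl1, the lyase that degrades sphingosine 1-phosphate, was at 75.7 and 59.3 RPKM in AnnexinV-positive against 29.95 and 40.4 RPKM in AnnexinV-negative libraries (0.94, limma adjusted p 0.0171), and lost its call without AnnexinV-positive library 1 (limma adjusted p 0.0879) and on the TPM scale (0.17). C1ql1, a C1q-like protein of the kind that binds ADGRB3, fell (-1.71, limma adjusted p 0.00744). Entpd1, an ectonucleotidase upstream of adenosine, and Slc29a1, a nucleoside transporter, were higher by 1.44 and 1.37 on the deposited scale, but by 0.32 and 0.24, without passing, centred on the microglia list. Adk, which phosphorylates adenosine, was at -0.29 (limma adjusted p 0.291).

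Of the G protein transducers, 28 of 42 were tested, with 13 higher and 7 lower and a median log2 difference of 0.54. The paralogs of the inhibitory alpha subunit, through which S1P, LPA and A1 adenosine receptors can signal, differed in size of change. Gnai1 fell to 0.326 and 0.185 RPKM in AnnexinV-positive libraries, against 19.7 and 11.9 RPKM in AnnexinV-negative libraries (-5.46, SE 0.32, limma adjusted p 2.49e-04). Gnai2 was at 185 and 212 RPKM in AnnexinV-positive against 102 and 110 RPKM in AnnexinV-negative libraries (0.91, limma adjusted p 0.00999), and Gnai3 was at 0.38 (limma adjusted p 0.135). Centred on the microglia list, Gnai2 was at -0.21 and Gnai3 at -0.74, and without AnnexinV-positive library 2 Gnai2 did not pass (limma adjusted p 0.0650). Gng11, a gamma subunit, fell by 4.73, Adcy5, an adenylyl cyclase inhibited by Gi, by 3.43, and Gnao1, the alpha subunit Go, by 3.35 on the log2 scale (limma adjusted p 0.00128, 0.00183 and 6.27e-04). The log2 difference of Gnai1 lay between those of Gpr37 and the lipid receptors. On the TPM scale 0 of the transducers were higher and 8 lower, where 114 of all 10927 genes tested were higher and 2104 lower.

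**Figure D4:**
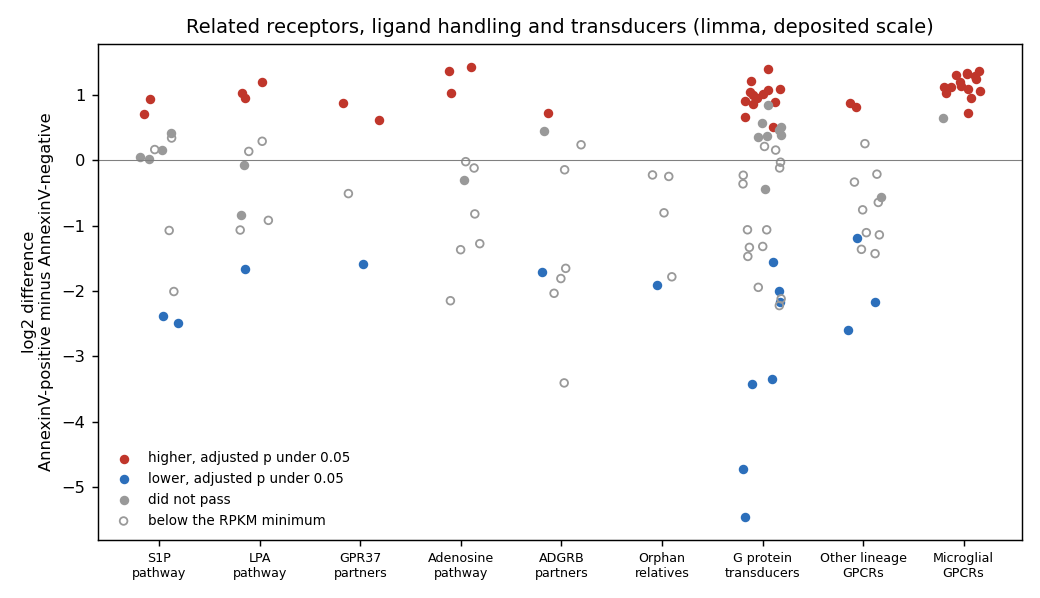
Log2 difference, AnnexinV-positive minus AnnexinV-negative, of the genes of the 9 lists, which also take in other lineage receptors and microglial receptors. Genes past the test are in red (higher) and blue (lower). Tested genes that did not pass are in grey, and genes below the RPKM minimum are open circles. Gnai1, at -5.46, is the lowest point, and the microglial receptors form a group of 15 higher genes out of 16, which is 0 on the TPM scale.

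Among 328 other G protein-coupled receptors by symbol, 72 were tested. On the deposited scale, where 30.8% of all genes tested were higher and 9.26% lower, 36 of these receptors were higher and 19 lower (limma, adjusted p under 0.05). On the TPM scale, where 114 of all 10927 genes tested were higher and 2104 lower, 1 of these receptors was higher and 21 were lower. The lowest log2 difference among them was that of Gpr17, a receptor of newly forming oligodendrocytes (-2.60, SE 0.63, limma adjusted p 0.0182), at 2.50 and 0.461 RPKM in AnnexinV-positive libraries, against 6.63 and 7.86 RPKM in AnnexinV-negative libraries. It rested in part on 1 library, with -3.71 without AnnexinV-positive library 1 and -1.49 without AnnexinV-positive library 2, and did not pass with no filter on low values (limma adjusted p 0.0613). Next came S1pr3 (-2.38), then the adhesion receptors Adgrl4 (-2.31) and Adgrf5 (-2.28), known from endothelial cells, whose markers fell as given above, then Grm3 (-2.17), a metabotropic glutamate receptor, and Fzd1 (-2.12), a Wnt receptor. Among receptors known from the oligodendrocyte lineage, Grm3, Ednrb (-1.18) and Gpr17 fell, Adgrg1 (0.88) and Cxcr4 (0.82), both also known from microglia, were higher on the deposited scale but not on the TPM scale, and Gabbr1 was at -0.57 (limma adjusted p 0.0906). Adgrg1 did not pass without AnnexinV-positive library 1 (limma adjusted p 0.0925) and was at -0.25 centred on the microglia list, where Cxcr4 was at -0.30. Cxcr4 did not pass without AnnexinV-positive library 2 (limma adjusted p 0.189), without AnnexinV-negative library 1 (limma adjusted p 0.0549) or with no filter (limma adjusted p 0.0665). Gabbr1 passed as lower on the TPM scale (-1.29) and centred on the microglia list (-1.69). Of the receptors that fell, Ednrb lay within the range of tested astrocyte markers (-1.82 to -0.43). Grm3, Ednrb and Gpr17 lay within that of tested endothelial markers (-2.90 to -0.09). Grm3 and Ednrb also lay within that of tested oligodendrocyte precursor markers (-4.19 to 0.55). The part of each cell type in these values was not tested.

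**Figure D5:**
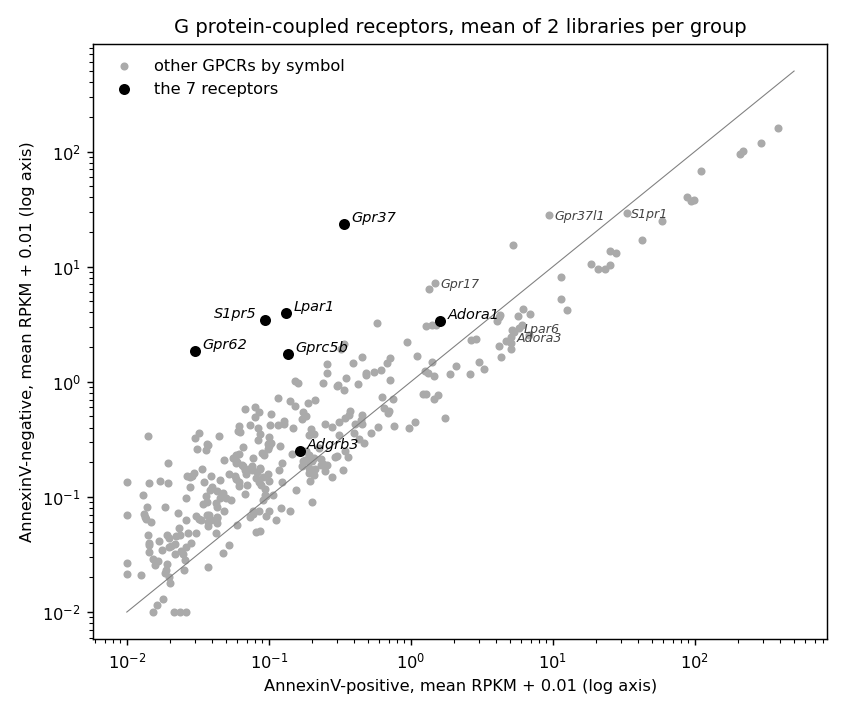
Mean RPKM of 335 G protein-coupled receptors in AnnexinV-positive (horizontal) and AnnexinV-negative cells (vertical), both as RPKM + 0.01 on log axes, with the line of equality and the 7 receptors in black. Gpr37, Lpar1, S1pr5, Gpr62 and Gprc5b lie far above the line, Adora1 and Adgrb3 close to it.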

How the data were processed

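RNA-seq of 4 libraries was analysed, 2 AnnexinV-positive and 2 AnnexinV-negative, grouped by title. The aligner GSNAP and the build mm10 are named per the submitters' processing notes, while no counter, annotation or filter is stated there. The deposited values were read as RPKM that the authors normalized with size factors, since in each library 79.6% to 83.6% of the values worth under 100 reads were whole reads to within 0.01 read, on a step set by the exonic length in GENCODE vM21 (GRCm38). Reads were recovered by dividing by that step, and came out whole in every library for Gpr37, S1pr5, Adora1 and Gpr62, and are approximate for Lpar1, Adgrb3 and Gprc5b; limits at 3 reads cover counting error only. Symbols and coordinates of 52489 genes came from GENCODE vM21. Exon overlaps were counted on both strands, since the kit does not keep strand.

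The 10927 genes reaching 1 RPKM in 2 or more libraries were tested with limma 3.58.1 in R 4.3.3 on log2(RPKM + 0.1), with an intensity trend, no covariate and Benjamini-Hochberg adjustment, a scale on which changes of low genes are understated. With 2 libraries a group, a two-sided exact permutation test gives 0.333 at the lowest, so single values have no test. Named were the 4 genes of each list with the smallest p, untested relatives, the 6 other receptors with the largest change each way and the 3 genes most like each member; S1pr1, S1pr2, Gnai2, Gnai3, Enpp2, Plpp2, Cxcr4, Gabbr1, Gpr84 and Ntsr2 were added after their values were seen. Other receptors were found by symbol patterns, which also take in proteins named Gpr that may not couple to G proteins. Pnp is not used here, and 1 gene like Gpr62 is not reported here. The members and lists were chosen with earlier results of these data known. The fit was tested on simulated data.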

Additional observations from a re-analysis of the deposited data

How the results depend on the processing

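The median log2 difference of the 7 receptors was -1.43 with a pseudocount of 1 and -4.98 with 0.01. It was -4.38 on the TPM scale, -5.04 centred on the microglia list and -4.48 to -3.33 with a library left out. Its sign could not turn, since the groups of all 7 receptors did not overlap and these scales lower AnnexinV-positive values. These runs thus show how the size depends on the processing, and are no check of the direction. Higher calls depended on the scale. With libraries centred on the median of the genes tested, 1133 of all genes, 22 pathway genes and 23 other receptors were higher; on the TPM scale 114, 0 and 1; centred on the microglia list 22, 0 and 0. On the TPM scale 2104 genes were lower. Centred on the microglia list, 5393 of all genes, 32 pathway genes and 32 other receptors were lower. With no filter on low values, 1865 genes were higher, against 3364 with it, and 2489 of all genes, 26 pathway genes and 37 other receptors were lower, against 1012, 16 and 19. With a minimum of 0.5 RPKM, 1856, 27 and 35 were lower; both filters change the number of genes tested. Leaving out a library in turn gave 1297 to 3356 genes higher and 787 to 1060 lower, 24 to 36 pathway genes higher, and 21 to 39 other receptors higher and 12 to 17 lower; the lowest counts of higher genes came without AnnexinV-positive library 1 or 2 (1749 and 1297), where the lone library is assumed to vary like the other group. Gpr17 did not pass with no filter (limma adjusted p 0.0613).

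Among named genes that passed on either scale, signs turned on the TPM scale for Elmo1 (-0.039), S1pr1 (-0.61), Sphk2 (-0.0531) and Stub1 (-0.14). Centred on the microglia list they turned for Adgrg1 (-0.25), Adora3 (-0.0936), Cxcr4 (-0.30), Elmo1 (-0.39), Elmo2 (-0.67), Gnai2 (-0.21), Gnai3 (-0.74), Lpar6 (-0.16), Plpp1 (-0.0889), Psap (-0.25), S1pr1 (-0.96), S1pr2 (-1.08), Sgpl1 (-0.18), Sphk2 (-0.41) and Stub1 (-0.49). The cause was not tested beyond the shift of scale.

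The labels link the libraries across groups by replicate number alone, and same-numbered libraries deviated with a correlation of -0.215 across genes. With the replicate number as a block, 2443 genes were higher and 957 lower, 32 pathway genes higher and 17 lower, and Elmo1, Sphk2 and Stub1 did not pass, while Enpp2, lower within each numbered pair, passed (-0.84, limma adjusted p 0.0492). Without AnnexinV-positive library 1 Enpp2 was at -2.28 (limma adjusted p 0.0154), and without AnnexinV-positive library 2 at 0.60. With the numbers crossed, an alternative chosen after seeing the data, 4891 were higher and 1136 lower.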

Other observations

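Receptors known from microglia, 16 in all, differed in the other direction from the 7 receptors: 15 were higher on the deposited scale (limma, adjusted p under 0.05), with log2 differences of 0.64 to 1.37 over the whole list and a median of 1.13, close to the median of 1.24 of the homeostatic microglia markers. On the TPM scale and centred on the microglia list 0 of the 16 were higher. Gpr84, a receptor for medium-chain fatty acids, was the most abundant receptor by symbol in both groups, at 412 and 353 RPKM in AnnexinV-positive libraries, against 162 and 159 RPKM in AnnexinV-negative libraries; its exons overlap Gm49482 on the other strand. Among other receptors, the largest increases on the deposited scale were those of Gpr132 (1.66), the platelet-activating factor receptor Ptafr (1.56), Gpr160 (1.41), the complement receptors C5ar1 (1.37) and C5ar2 (1.36) and the chemerin receptor Cmklr1 (1.34), and without AnnexinV-positive library 1 Gpr132 had a limma adjusted p of 0.0600.

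Ntsr2, a neurotensin receptor known from astrocytes, was at 3.22 and 7.28 RPKM in AnnexinV-positive libraries, against 19.1 and 11.6 RPKM in AnnexinV-negative libraries (-1.60, limma adjusted p 0.0208), close to the -1.59 of Gpr37l1 and within the range of the astrocyte markers. It did not pass without AnnexinV-positive library 1 (limma adjusted p 0.0531) or with no filter on low values (limma adjusted p 0.0653).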
